A study of Bubalus bubalis with 6 samples.

Results

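UBE3A gave 23 of the 57308 circular RNAs (circRNAs) in the deposited table of buffalo blood, found as all rows whose host gene is named UBE3A. The gene was chosen by the reads of its leading circRNA, among the most abundant of the table, and by its lower level in pregnant animals, so its levels and its difference between the groups are given as a description, with no test. Blood came from 3 pregnant Jianghuai cows (P-Buffalo), inseminated and sampled on day 25, with pregnancy read by ultrasound on day 60. It was set against blood from 3 non-pregnant cows (C-Buffalo), which received no insemination. The cows of both groups were 3 to 5 years old, kept at 1 farm, and had received 2 injections of sodium D-chlorprostol, 11 days apart, to synchronise oestrus. With this design the effects of pregnancy and of insemination cannot be told apart. The 6 libraries are from separate animals, so p-values for other genes measure the spread between animals.

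A circRNA forms when the end of an exon is spliced back to the start of the same or an earlier exon, which leaves a closed ring without free ends. Each count in the table is of reads across such a back-splice junction, and the linear mRNA of the same gene, which RNase R digests, was not measured. UBE3A encodes a ubiquitin ligase of the HECT family, enzymes that take ubiquitin from an E2 enzyme onto a cysteine of their own and pass it to a substrate, often marking it for the proteasome. In human and mouse neurons the gene is expressed from the maternal copy, and loss of that copy causes Angelman syndrome in humans.

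The libraries held 815851 to 1298753 circRNA reads. The factor that scales each library for its composition (TMM) was 0.467 in non-pregnant replicate 2 and 1.09 to 1.25 in the other 5 libraries, so levels in CPM, the counts per 1000000 circRNA reads after this factor, are about 2 times as high in that library as they would be without it. For that reason the level per 1000000 reads without the factor, called the plain CPM, is given as well. A count of 0 allows up to 3 counts, or 2.31 to 3.68 plain CPM, for counting error only, since the reads carry no molecular identifiers.

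One ring held nearly all of the UBE3A reads. The leading circRNA, circRNA9123, runs from 67217077 to 67223098 on the plus strand of NC_037564.1 (ASM312139v1, the build the paper names; positions as deposited) and joins 3 exons. Of the 66772 UBE3A reads in the 6 libraries, 66033 (98.9%) crossed its junction, and the other 22 circRNAs shared 739. It ranked 4th of all circRNAs in reads, and first of the 11245 circRNAs of 3 exons, whose median was 11 reads.

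By the flanking introns listed for the UBE3A circRNAs, the ring is made of exons of 64, 120 and 45 bp. The exon of 64 bp lies from 67217077 to 67217140, that of 120 bp from 67219675 to 67219794, and that of 45 bp from 67223054 to 67223098. The spliced ring would thus be 229 bp long, out of a genomic span of 6022 bp. It ends before the exon of 305 bp (67249057 to 67249361) and the large exon of 1247 bp (67255850 to 67257096). The intron before the ring is listed at 32507 bp and the one after it at 25958 bp. Of the 45617 exonic circRNAs with a pair of listed flanking introns, 92.4% had a shorter first intron and 90.7% a shorter second one, with medians of 4335 and 4319 bp. The span was ordinary in length, with 52.8% of these circRNAs shorter.

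**Figure D1:**
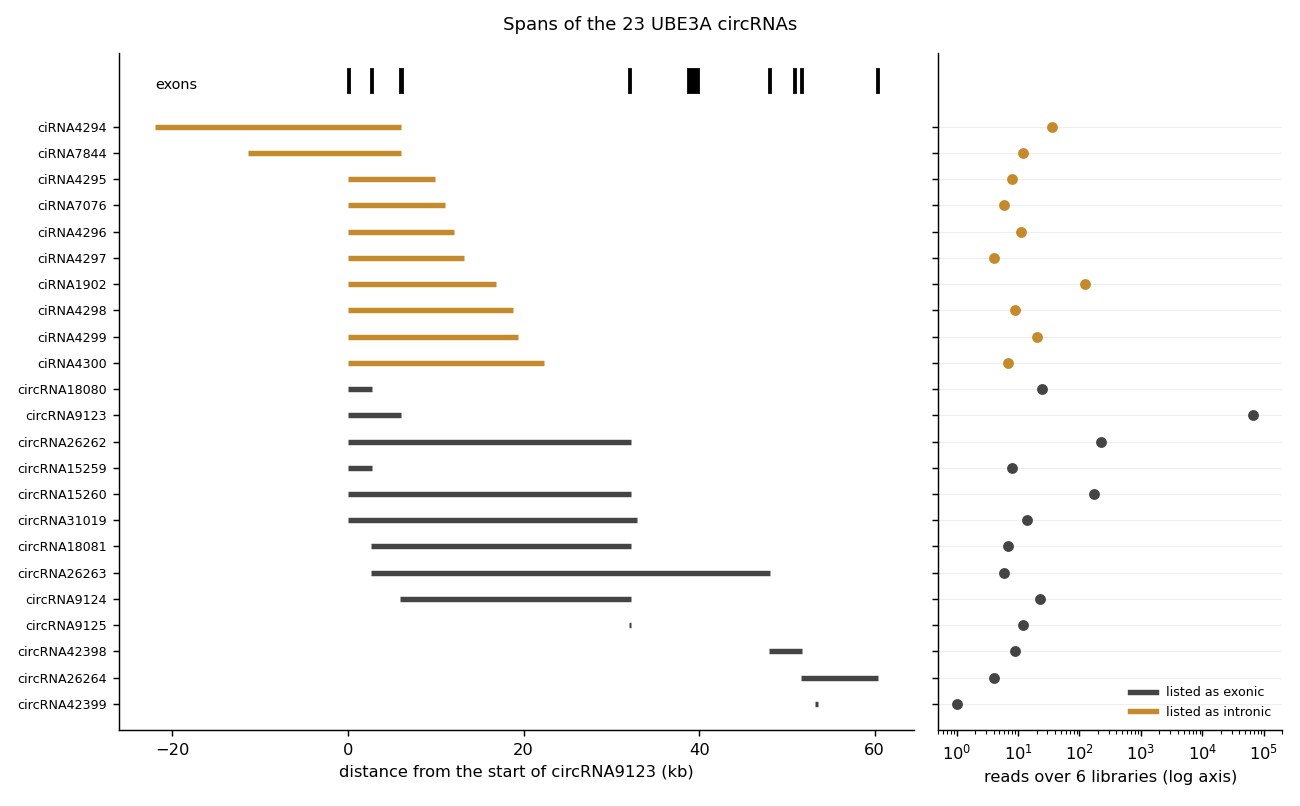
Spans of the 23 UBE3A circRNAs in kb from the start of circRNA9123 (left; black blocks are the exons placed by the listed flanking introns, the shortest widened to be visible) and their reads over the 6 libraries on a log axis (right). All 10 bars listed as intronic start or end where circRNA9123 does, and its 66033 reads lie far to the right of the next circRNA, with 221.

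circRNA9123 had 3690, 10063 and 6103 reads in pregnant replicates 1, 2 and 3, against 16838, 11533 and 17806 reads in non-pregnant replicates 1, 2 and 3. Every pregnant library lay below every non-pregnant one in reads, with the nearest pair, pregnant replicate 2 and non-pregnant replicate 2, only 1.15-fold apart. The level was 3555, 7748 and 7481 plain CPM in the pregnant libraries, against 17172, 12376 and 15595 plain CPM in the non-pregnant libraries. The groups did not overlap on this scale either, and the closest libraries were 1.60-fold apart. On average it was at 6261 ± 2348 plain CPM in pregnant and 15048 ± 2445 plain CPM in non-pregnant animals (SD, n = 3 each), a ratio of 0.416.

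After TMM factors, circRNA9123 was at 3014, 7082 and 5996 CPM in the pregnant libraries, against 15802, 26511 and 12738 CPM in the non-pregnant libraries. Non-pregnant replicate 2, the lowest of its group in plain CPM, became the highest on this scale. The log2 fold change fitted by edgeR was -1.77 (standard error 0.49), where 22.1% of all circRNAs fitted were at -1 or lower, and -1.27 (standard error 0.34) when libraries were scaled to their summed counts alone. In SRPBM, the scale of the authors, the values were 718, 2117 and 1050 in the pregnant libraries, against 3861, 2066 and 3278 in the non-pregnant libraries. Here the groups overlapped, since pregnant replicate 2 lay above non-pregnant replicate 2. Of all 8261 circRNAs fitted, 3.87% had every pregnant library below every non-pregnant one in CPM and 8.16% had every one above. These shares hold for CPM after TMM factors and were not counted for reads or plain CPM. The adjusted test called 0% of them, and 2.46% lower and 1.43% higher passed an unadjusted p under 0.05 with at least a 2-fold change. In bulk blood, fewer cells of a type and less RNA per cell cannot be told apart.

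**Figure D2:**
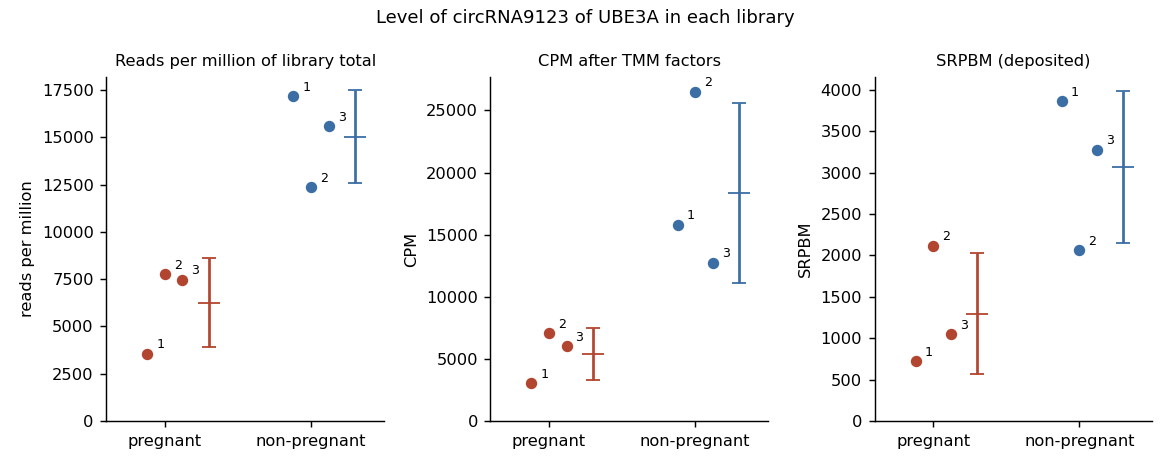
Level of circRNA9123 in each library (points, numbered by replicate) on 3 scales, with the mean and SD of each group (n = 3) to the right of its points. The groups are apart in plain CPM (left) and in CPM after TMM factors, and overlap in SRPBM, where pregnant replicate 2 is at 2117 and non-pregnant replicate 2 at 2066.

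The rank of circRNA9123 among the circRNAs of a library moved with these levels. It was 16th, 8th and 7th in pregnant replicates 1, 2 and 3, against 5th, 3rd and 4th in non-pregnant replicates 1, 2 and 3. Ranks within a library do not depend on the scaling, and no pregnant library placed it as high as a non-pregnant one. As the gene was chosen for its lower level in pregnant animals, this is a description. The share of all circRNAs so separated in rank was not counted. All UBE3A reads together made up 0.361%, 0.782% and 0.765% of the circRNA reads of the pregnant libraries, against 1.72%, 1.25% and 1.58% in the non-pregnant libraries. With all circRNAs of a host gene summed, the log2 fold change of UBE3A was -1.50 (standard error 0.41), and 15.7% of all host genes were at -1 or lower. Of the 4137 host genes fitted, 4.47% had every pregnant library below every non-pregnant one in CPM after TMM factors.

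The make-up of the UBE3A reads differed little between libraries. circRNA9123 took 98.3% of them in pregnant replicate 1 (95% exact Clopper-Pearson interval 97.9% to 98.7%), 99.0% in pregnant replicate 2 (98.8% to 99.2%) and 97.8% in pregnant replicate 3 (97.4% to 98.2%). In the non-pregnant libraries it took 99.6% in replicate 1 (99.5% to 99.7%), 98.7% in replicate 2 (98.4% to 98.9%) and 98.8% in replicate 3 (98.6% to 98.9%). These intervals cover counting error only. The groups overlapped, at 98.4% ± 0.604 in pregnant and 99.0% ± 0.509 in non-pregnant animals (SD, n = 3 each). The 22 minor circRNAs together had 62, 99 and 136 reads in the pregnant libraries, against 67, 155 and 220 reads in the non-pregnant libraries. Their level was 101 ± 57.6 plain CPM in pregnant and 142 ± 65.5 plain CPM in non-pregnant animals (SD, n = 3 each), and the groups overlapped.

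Such concentration on 1 junction was at the upper end among host genes with many circRNAs. Among the 555 host genes with at least 20 circRNAs, the leading one took a median of 40.9% of the reads, with quartiles of 29.9% and 56.1%. UBE3A, at 98.9%, was 2nd of the 555. USP3, a deubiquitinase gene, and VRK1, a nuclear kinase gene, whose leading circRNAs were more abundant still, had 96.7% and 96.0%. PICALM, a clathrin assembly gene with 89452 reads in all, had 69.4%. These shares depend on which junctions the authors' callers kept, and they are a description with no test.

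**Figure D3:**
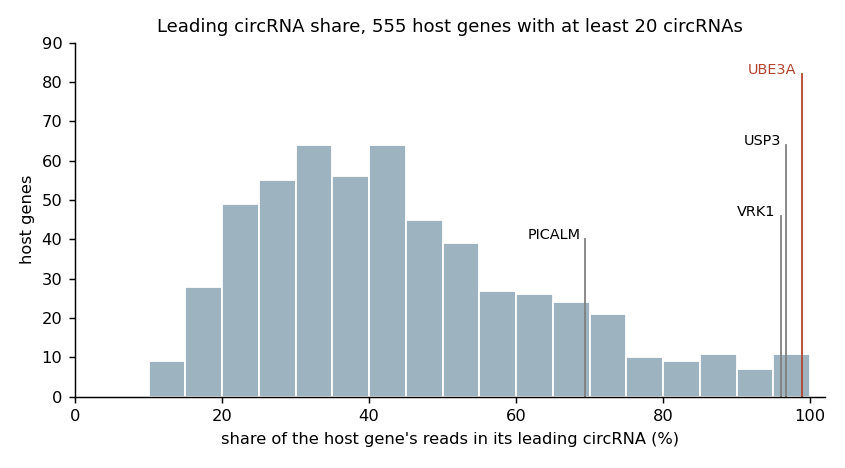
Share of a host gene's reads in its leading circRNA, for the 555 host genes with at least 20 circRNAs (bars, number of host genes per 5 percentage points), with UBE3A and 3 other hosts marked by lines. The median is 40.9%, and UBE3A lies at 98.9%.

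The minor circRNAs mostly reused the start of the leading ring, and 2 of them, with 48 reads, its end. Of the 23 circRNAs, 14 start at 67217077 or 1 bp after it, and the 13 minor ones among them held 85.1% of the minor reads. At the other side the commonest minor end was 67249361, the end of the exon of 305 bp, which 5 circRNAs with 437 reads share. Only 3 circRNAs, with 14 reads in all, lie wholly in the part of the gene after that exon.

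A pair of longer rings ends at 67249361, with the exon of 305 bp, and starts 1 bp apart. circRNA26262, which starts at 67217077 with 4 exons, had 39, 42 and 61 reads in the pregnant libraries, against 0, 0 and 79 in non-pregnant replicates 1, 2 and 3. Its partner circRNA15260, which starts 1 bp later and is listed with 5 exons under another transcript model, had 0 reads in all pregnant libraries, against 22, 152 and 0 in non-pregnant replicates 1, 2 and 3. In this second model the intron after the exon of 120 bp is listed at 1684 bp, against 3259 bp in the first, so the pair may differ in an exon as well as in the start. No library had reads for both, and every library had reads for 1 of them. Summed, the pair had 39, 42 and 61 reads in the pregnant libraries, against 22, 152 and 79 in the non-pregnant libraries. The sums overlapped between the groups, and the highest was that of non-pregnant replicate 2.

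In non-pregnant replicate 1 the start at 67217077 was in use, with 16838 reads of circRNA9123, while the longer ring was listed at 67217078. A second pair 1 bp apart joins the exons of 64 and 120 bp only, and again no library had reads for both. circRNA18080, starting at 67217077, had 0, 16 and 0 reads in the pregnant libraries, against 0, 1 and 8 in the non-pregnant libraries. circRNA15259, starting at 67217078, had 8 reads in non-pregnant replicate 1 and 0 in the other 5 libraries. The third circRNA that starts at 67217078, circRNA31019, had 4, 0 and 0 reads in the pregnant libraries, against 0, 0 and 10 in the non-pregnant libraries. Its listed end, 67250029, lies 7067 bp before its listed downstream intron, which starts where the exon of 1247 bp ends. All 3 circRNAs of the second transcript model start at 67217078, and none of the 20 of the first model does.

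The table lists 10 of the 23 circRNAs as intronic (ciRNA), a name for rings made of intron sequence alone. All 10 share an end with circRNA9123 and span the exons of that ring. Of these, 8 start at 67217077 and end within the intron that follows, 3906 to 16281 bp past the end of circRNA9123. The other 2 end at 67223098 and start within the intron before, 11406 and 21932 bp upstream. Over all 7866 intronic circRNAs of the table, 33.8% share an end with an exonic circRNA of the same host, and 24.8% contain one. Their median span was 1538 bp, against 9928 to 27954 bp in the UBE3A ones. What the listed type stands for in these rows was not tested.

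Of the intronic ones, ciRNA1902 (67217077 to 67233989) was read most widely. It had 19, 17 and 37 reads in the pregnant libraries, against 16, 0 and 33 in the non-pregnant libraries. The groups overlapped, and only non-pregnant replicate 2 was at 0. ciRNA4294, which starts upstream at 67195145, had 0, 0 and 17 reads in the pregnant libraries, against 0, 0 and 19 in the non-pregnant libraries. ciRNA7844, from 67205671, had 12 reads in pregnant replicate 3 only. The other 7 all start at 67217077 and had 4 to 20 reads each. Of these, ciRNA4295, ciRNA4296, ciRNA4297, ciRNA4299 and ciRNA4300 were read in non-pregnant replicate 3 alone, with 8, 11, 4, 20 and 7 reads, ciRNA7076 in pregnant replicate 2 alone, with 6, and ciRNA4298 had 3 reads in pregnant replicate 3 and 6 in non-pregnant replicate 3.

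**Figure D4:**
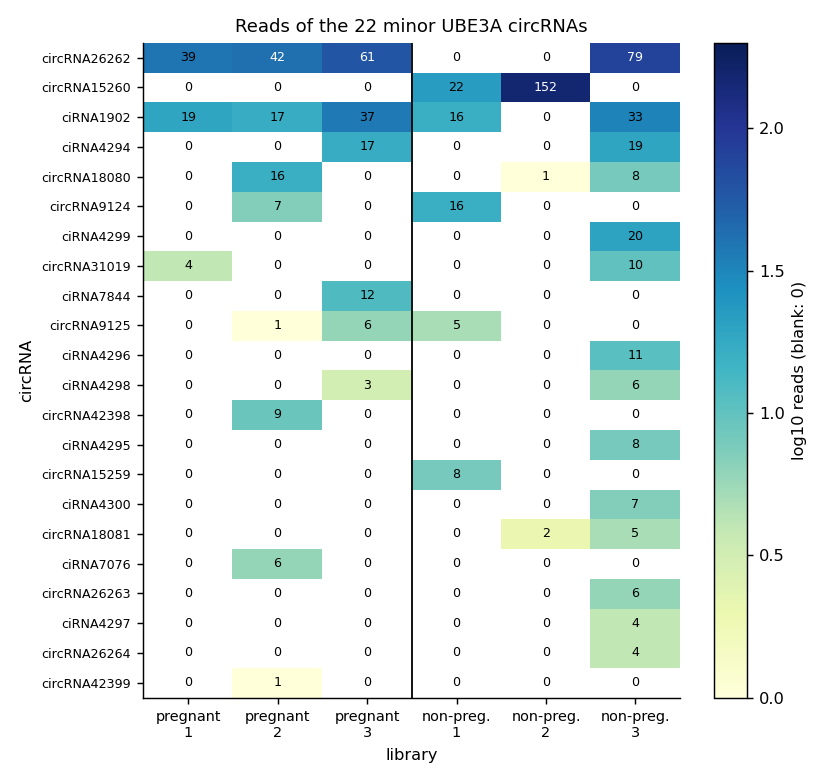
Reads of the 22 minor UBE3A circRNAs (rows, by total) in the 3 pregnant and 3 non-pregnant libraries (columns), with the number of reads in each cell and the colour on a log10 scale. Reads of circRNA26262 and circRNA15260 never share a library, and 7 rows have reads in non-pregnant replicate 3 alone.

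Libraries differed in how many of the 23 they held. Pregnant replicates 1, 2 and 3 held 4, 9 and 7 of them, against 6, 4 and 15 in non-pregnant replicates 1, 2 and 3. Only circRNA9123 was read in all 6 libraries. In all, 12 (52.2%) were read in 1 library only, 7 of them in non-pregnant replicate 3, while 56.5% of all circRNAs of the table were read in 1 library only. By group, 4 were read in pregnant animals only, 10 in non-pregnant animals only, 7 of them from non-pregnant replicate 3 alone, and 9 in both. These are 17.4%, 43.5% and 39.1% of the 23, where all circRNAs of the table gave 37.9%, 25.7% and 36.3%. The filter on low counts passed 3, namely circRNA9123, circRNA26262 and ciRNA1902. The 19 with fewer than 40 reads had 1 to 36 reads each. As a count of 0 allows up to 3 reads, a difference of a few reads between libraries could not be read at this depth.

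Rings that leave out the exon of 64 bp were rare. circRNA9125, the exon of 305 bp by itself, had 0, 1 and 6 reads in the pregnant libraries, against 5, 0 and 0 in the non-pregnant libraries. circRNA9124, which joins it to the exon of 45 bp, had 0, 7 and 0 reads in the pregnant libraries, against 16, 0 and 0 in the non-pregnant libraries. By the listed ends, circRNA26263 is the only UBE3A ring that spans the exon of 1247 bp, with 6 reads in non-pregnant replicate 3. The listed end of circRNA31019 lies before that exon, but its listed downstream intron lies after it. circRNA18081, from the exon of 120 bp to that of 305 bp, had 0 reads in all pregnant libraries, against 0, 2 and 5 in the non-pregnant libraries. The 3 rings past the exon of 305 bp were each read in 1 library, circRNA42398 with 9 reads and circRNA42399 with 1 in pregnant replicate 2, and circRNA26264 with 4 in non-pregnant replicate 3.

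Other genes of the UBE3A pathway were taken from lists that cover its family, its upstream enzymes and its targets. Of 27 HECT ligases listed, 26 gave circRNAs and 19 could be tested, and edgeR's quasi-likelihood test called 0 of them in either direction (smallest adjusted p = 0.910), with 0 also at an unadjusted p under 0.05. Over all 4137 host genes it called 0%, while 4.52% were lower and 0.967% higher at an unadjusted p under 0.05 with at least a 2-fold change. DESeq2 called 1 of the 3997 of these genes to which it gave a p, and 7 of 8401 host genes without the edgeR filter. The median log2 fold change of the 19 was -0.12, against 0.012 over all host genes. HACE1, a HECT ligase with ankyrin repeats, had 2969, 4086 and 2096 reads in the pregnant libraries, against 2842, 1612 and 2910 in the non-pregnant libraries, a log2 fold change of 0.038 (standard error 0.40). UBE3C, a proteasome-associated relative of UBE3A, had 2464, 2772 and 1835 reads in the pregnant libraries, against 2075, 2190 and 2863 in the non-pregnant libraries, a log2 fold change of -0.33 (standard error 0.41). Both overlapped between the groups. HERC4 and HERC3 carry a domain like that of the Ran exchange factor beside the HECT domain. The log2 fold change was -0.26 for HERC4 (standard error 0.56) and -0.13 for HERC3 (standard error 0.57). HERC1, a giant member of that family, was named after its values were seen. It was the 1 gene of the 19 with every pregnant library above every non-pregnant one in CPM, as in 7.06% of all host genes.

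Upstream of the ligase, the list of the E1 enzymes and of the E2 enzymes that charge UBE3A held 7 genes, of which 4 could be tested. None was called by edgeR's quasi-likelihood test (smallest adjusted p = 0.972), and none at an unadjusted p under 0.05. The log2 fold changes of the E2 genes were -0.30 for UBE2D2 (standard error 0.47), -0.94 for UBE2D3 (standard error 0.83) and 0.79 for UBE2D1 (standard error 0.91), and that of the E1 gene UBA6 was -0.29 (standard error 0.51). The list of known partners and substrates held 19 symbols, of which ARNTL and BMAL1 name the same gene. Of the 19, 4 could be tested and 0 were called (smallest adjusted p = 0.957, edgeR), again with 0 at an unadjusted p under 0.05. Of the proteasome shuttle genes, RAD23B was at a log2 fold change of -1.06 (standard error 0.83) and UBQLN1 at 0.59 (standard error 0.90). MCM7, a replicative helicase gene, was at a log2 fold change of 1.72 (standard error 1.38).

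Genes near UBE3A gave few circRNAs. In the RefSeq gene order of another buffalo assembly, NDDB_SH_1, none of the 6 genes listed on either side of UBE3A gave a circRNA in this table. Only ATP10A and LOC112580842 among them are listed as protein-coding, and 6 are snoRNA genes. Most of these neighbours are thus not comparable with UBE3A as hosts. Of 14 genes listed for the wider region that is imprinted or lies next to it in humans, 3 gave circRNAs, and edgeR called 0 of the 3 (smallest adjusted p = 0.984), with 0 at an unadjusted p under 0.05. CYFIP1, an actin regulator gene, had 105, 204 and 96 reads in the pregnant libraries, against 99, 12 and 149 in the non-pregnant libraries. SNURF, the upstream reading frame of the paternally expressed SNRPN transcript, had 20, 26 and 10 reads in the pregnant libraries, against 31, 5 and 64 in the non-pregnant libraries. TUBGCP5, a gene of the microtubule-nucleating complex, had 0, 18 and 17 reads in the pregnant libraries, against 6, 1 and 32 in the non-pregnant libraries. In all 3 the groups overlapped.

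Over the 6 libraries, the host genes whose summed log2 CPM followed UBE3A most closely were MEMO1, SRBD1, ITSN1, LOC102409250 and IKZF1, with Pearson's r from 0.970 to 0.988 among 4136 host genes compared. These r share the libraries and their scaling factors and have no p, and with 6 libraries and this many genes 38 had an r above 0.9. As UBE3A was chosen for its lower level in pregnant animals, a lower level of the genes named here follows from the choice. Their levels are a description. MEMO1, a gene of cell motility, was at 709, 1049 and 1083 CPM (TMM factors of the host gene fit) in the pregnant libraries, against 1797, 2151 and 1760 CPM in the non-pregnant libraries. Its plain CPM was 757, 1063 and 1188 in the pregnant libraries, against 1731, 1438 and 1939 in the non-pregnant libraries. As for UBE3A, non-pregnant replicate 2 was the highest of its group after TMM factors and the lowest without them. SRBD1 and IKZF1 overlapped between the groups in plain CPM. ITSN1, an endocytic scaffold gene, was at 21.6, 97.2 and 67.1 CPM in the pregnant libraries, against 180, 225 and 147 CPM in the non-pregnant libraries. IKZF1 encodes the lymphoid transcription factor Ikaros, and LOC102409250 is described in the table as the alpha subunit of the G protein Gq.

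The blood cell lists were chosen with earlier results of these data known, so their sums, directions and unadjusted passes are a description. Host genes of platelets were lower in sum in the pregnant libraries, as UBE3A was. Of 15 platelet genes listed, 10 gave circRNAs, and GP1BA, GP9, PF4, TREML1 and NRGN had none under these symbols. Their summed level was 2477, 2065 and 1646 plain CPM in the pregnant libraries, against 3307, 3527 and 3132 in the non-pregnant libraries. All 7 that could be tested had a log2 fold change below 0, with a median of -0.82. Of these, CLEC1B and VCL were lower at an unadjusted p under 0.05 with at least a 2-fold change, as were 4.52% of all host genes. None was called after adjustment by edgeR (smallest adjusted p = 0.844). VCL had 32, 48 and 2 reads in the pregnant libraries, against 81, 617 and 19 in the non-pregnant libraries. Its groups overlapped, and most of its non-pregnant reads were from replicate 2. Erythroid host genes were higher in sum in the pregnant libraries, with 10 of 14 giving circRNAs. Genes were matched by exact symbol only, and no row was named GYPC, HBA, HBB or BCL2L1. The erythroid sums were 5289, 6795 and 5419 plain CPM in the pregnant libraries, against 3914, 3643 and 3281 in the non-pregnant libraries. Of the 8 tested, 2 were below 0 (ANK1 at -1.06 and XPO7 at -1.06), and the median was 0.34. Without MARCH8, a ubiquitin ligase gene, the sums overlapped, at 3997, 4257 and 2668 plain CPM in the pregnant libraries, against 2997, 2940 and 1973 in the non-pregnant libraries. After TMM factors the erythroid groups overlapped also with MARCH8 included, at 4940 to 6702 CPM in pregnant and 2978 to 5450 CPM in non-pregnant animals, and the platelet groups did not. The lymphocyte list, with 11 of 20 genes giving circRNAs, ran from 2735 to 4875 plain CPM in pregnant and from 3504 to 5361 in non-pregnant animals. The neutrophil and monocyte list, with 9 of 16, ran from 287 to 409 in pregnant and from 360 to 503 in non-pregnant animals. EdgeR called 0 of the 8 erythroid, 7 lymphocyte and 4 neutrophil or monocyte genes tested (smallest adjusted p = 0.844). RHAG was higher at an unadjusted p under 0.05 with at least a 2-fold change (log2 fold change 3.06), as were 0.967% of all host genes. MARCH8, at a log2 fold change of 0.96, passed the p but not the fold. The part of blood cell composition in the UBE3A level was not tested.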

How the data were processed

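RNA from jugular vein blood was depleted of ribosomal RNA and treated with RNase R before paired-end sequencing. The authors deposited a read count per circRNA and library, not normalized, and a signal per circRNA and library, SRPBM, where 1 unit stands for 4.36 to 5.81 counts, fixed within a library. For mapping, the paper lists Tophat2, Bowtie2 and, for unmapped reads, Tophat-fusion, and for circRNA assembly CIRI and CIRCExplorer, on ASM312139v1, a buffalo assembly. Other tools (StringTie, HISAT2, fastp, edgeR) and GRCh38.p10, a human build, stand in the submitters' processing notes. The choice between these for the table was not given in the sources used here. All positions, exon numbers and flanking introns are as deposited.

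The UBE3A rows and the gene lists were chosen with earlier results of these data known. UBE3A therefore has no test. Reads are given per library for every UBE3A circRNA with at least 100 reads and for those sharing an end with the leading one, the remaining ones are named to account for every row, and the pathway genes named are up to 4 per list by mean reads. A result that this rule names is withheld and not reported here. The 5 host genes most like UBE3A were taken by Pearson's r of log2 CPM. EdgeR 4.0.16 in R 4.3.3 (quasi-likelihood, TMM factors, default filter on low counts, Benjamini-Hochberg adjustment) was run over 8261 circRNAs and, with the counts of a host gene summed, over 4137 host genes, and was tested on simulated data. Calls had to reach 0.05 in adjusted p and 1 in absolute log2 fold change. Alternatives were RLE factors, library totals from SRPBM or from the summed counts, no filter, DESeq2 1.42.0 (with and without the edgeR filter), the replicate number as a block, merging circRNAs within 1 bp, a minimum of 5 reads, exonic circRNAs only and leaving out each library.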

Additional observations from a re-analysis of the deposited data

How the results depend on the processing

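The log2 fold changes of circRNA9123 and of summed UBE3A stayed negative and moved by less than 1 SD of the spread between animals in all 14 alternatives for circRNA9123 and all 13 for UBE3A. For circRNA9123 they ran from -1.99 (RLE factors) to -1.24 (SRPBM totals), and from -2.06 to -1.43 when 1 library was left out. The precision did not hold in the same way. With DESeq2 without the edgeR filter the standard errors were 1.62 for circRNA9123 and 0.77 for UBE3A, against 0.49 and 0.41 in the main fits. With DESeq2 on the features that passed the edgeR filter they were 0.74 and 0.65. The edgeR standard errors were derived from the F value of its test and those of DESeq2 are its own, so the measures are not alike. The difference in the UBE3A share of all reads, -0.88 percentage points, ran from -1.02 to -0.745 with a library left out, and that of the leading share, -0.62, from -0.935 to -0.329.

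The 0 of 4137 host genes called became 86 of 8611 without the filter and 0 to 2 without single libraries. With DESeq2 they became 7 of the 8401 given a p. DESeq2 did not have the edgeR filter but applied its own filter on mean counts before adjustment. The 0 of 8261 circRNAs became 600 of 57308 without the filter and 159 of 56238 with DESeq2. With DESeq2 on the features that passed the edgeR filter, an alternative chosen after seeing the data, 1 of 3997 host genes and 39 of 7791 circRNAs were called. At an unadjusted p under 0.05 with at least a 2-fold change, 340 and 579 passed. The cause of the differences in calls was not tested. By the same rule on the unadjusted p and the fold change, the 321 circRNAs (118 higher, 203 lower) became 171 with SRPBM totals (115 higher, 56 lower). They became 204 with summed counts (121 higher, 83 lower), 2121 without the filter, 901 with DESeq2 and 389 to 937 without single libraries. The 227 host genes (40 higher, 187 lower) became 84 (45 higher, 39 lower), 140 (62 higher, 78 lower), 542, 372 and 146 to 500.

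Replicate numbers mark different animals. The deviations of same-numbered libraries correlated at -0.15 to -0.018. For no replicate number were the pregnant and non-pregnant libraries each other's best match, over circRNAs or over host genes. With the replicate number as a block, the log2 fold changes were -1.80 for circRNA9123 and -1.57 for UBE3A. The calls were 1 host gene and 0 circRNAs (99 and 148 at an unadjusted p under 0.05 with at least a 2-fold change). Only 739 reads lie outside circRNA9123, which limits every statement on the minor circRNAs.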
